A study of Mus musculus with 80 samples.

Results

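The SALL (spalt-like) family of zinc finger transcription factors has 4 members in the mouse, Sall1, Sall2, Sall3 and Sall4, and the levels of these 4 genes were read in every RNA-seq table of a series on mouse embryonic stem (ES) cells. The genes were taken by symbol, entries with the same symbol were summed, and the members are 4 of 37890 gene symbols in 12 tables. A value was listed for 47 of the 48 combinations of gene and library. The series holds 80 samples. The remaining 68 profile chromatin or modified DNA and enter no value below.

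All libraries are labelled as mouse ES cells, the self-renewing cells grown from the early embryo. Sall4 het cells (Sall4 flox/-) carry 1 conditional and 1 null allele, and Sall4 KO cells (Sall4 delta/-) carry the recombined allele over a null allele. Each of these had 2 libraries, as had Sall4 KO cells transfected with a mutant SALL4A, called KO plus mutant here. Replicate 1 of these 3 groups is labelled C57BL/6J and holds FPKM, and replicate 2 is labelled 129P2/OlaHsd, line E14.1, and holds RPKM. Both units are per kilobase of transcript, so genes within a library can be set side by side. A further 6 groups had 1 library each: KO plus wild type (Sall4 KO transfected with WT SALL4A), the double knockout (Sall1-/-/Sall4-/-, DKO), the wild-type cells for the DKO, Sall1 het (Sall1flox/-), Sall1 KO (Sall1 delta/-), all labelled C57BL/6J, and the wild-type TT2 line, labelled (C57BL/6NCrlj x CBA/JNCrlj)F1. All of these hold FPKM. The labels do not say how many clones were used, which residues the mutant SALL4A changes, which exons were removed, or whether libraries of a group are separate cultures. A p-value here therefore measures only how far these libraries spread, which may be technical.

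SALL proteins carry pairs of C2H2 zinc fingers spread along the protein, and a short motif at the amino terminus recruits the NuRD complex, which joins a chromatin remodeller to histone deacetylases. SALL4 is a well-known factor of ES cells, where it acts with POU5F1, SOX2 and NANOG, and its most carboxy-terminal zinc fingers bind AT-rich DNA. SALL1 is also present in ES cells and is needed for kidney development, SALL2 is expressed widely in the embryo, and SALL3 is known from the nervous system and limb. SALL1 and SALL4 can bind to each other, and the question read here is how the level of each gene stood when another was labelled as lost. In mm9, the build of the files, the 4 genes stand on separate chromosomes, Sall4 on chromosome 2 (168573831 to 168592701), Sall1 on chromosome 8 (91551142 to 91568061), Sall2 on chromosome 14 (52930851 to 52948345) and Sall3 on chromosome 18.

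The TT2 table, the only one at transcript level, lists 1 entry for Sall1, 2 for Sall2, 3 for Sall3 and 4 for Sall4. For Sall4, 1 entry held 98.9% of the summed FPKM, with 12.6, and the next had 0.107. For Sall3, the longest entry held nearly all of the 0.103 FPKM. For Sall2, the entry from 52930855 to 52935910, with a span of 5055 bases, had 0.366 FPKM, and the entry that reaches 52948345, with a span of 17490 bases, had 3.23e-07. Sall2 is on the minus strand, so its entries share the 3′ end and differ in where they start. The TT2 value for Sall2 thus sat on the transcript with the inner start. This rests on a low value in 1 library of unknown depth, and how reads were split between overlapping entries is not known here. The sources used here do not give which Sall4 entry encodes the SALL4A protein.

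The upstream sequences of Sall2 are shown for an outer and an inner RefSeq start, because the TT2 entries also differ in their start. That of the outermost Sall1 start is shown beside them, as the other member with a window. They come from RefSeq (GRCm38.p6), each is the 250 bases before a start, written 5′ to 3′ on the gene's strand, and capitals mark CG dinucleotides. Windows were matched for 2 of the 4 genes. The TT2 entries are in mm9, and whether their starts are those of these windows was not checked.
Sall2, outer start, chr14:52328671-52328920, minus strand: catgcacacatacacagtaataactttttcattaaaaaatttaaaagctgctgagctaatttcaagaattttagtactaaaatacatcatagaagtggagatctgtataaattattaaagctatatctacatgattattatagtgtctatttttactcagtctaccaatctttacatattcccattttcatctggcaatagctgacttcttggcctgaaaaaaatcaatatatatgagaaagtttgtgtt
Sall2, inner start, chr14:52316324-52316573, minus strand: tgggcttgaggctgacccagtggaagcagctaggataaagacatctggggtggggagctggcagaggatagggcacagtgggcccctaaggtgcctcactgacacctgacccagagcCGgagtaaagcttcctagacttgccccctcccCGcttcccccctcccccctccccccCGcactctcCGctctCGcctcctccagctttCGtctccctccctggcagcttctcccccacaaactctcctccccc
Sall1, outermost start, chr8:89044163-89044412, minus strand: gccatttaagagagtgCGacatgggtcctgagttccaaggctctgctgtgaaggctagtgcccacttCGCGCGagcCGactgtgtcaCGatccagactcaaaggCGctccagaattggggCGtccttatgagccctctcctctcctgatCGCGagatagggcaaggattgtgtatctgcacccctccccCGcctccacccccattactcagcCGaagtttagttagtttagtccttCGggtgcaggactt
The outer Sall2 window held 0 CG dinucleotides and was 28.0% G or C, and the inner window, 12347 bases away, held 6 and was 64.4% G or C. The Sall1 window held 13 and was 56.4% G or C, and the windows of its 2 inner starts, not shown, held 25 and 30 and were 74.4% and 78.4% G or C. Over 32851 RefSeq windows of the same length the median was 6 CG dinucleotides. The letters AATATT, the AT-rich stretch searched for on both strands, were in 6.17% of all windows, and ATGCAAAT, the octamer that POU factors bind, searched for likewise, in 1.6%. Neither was found in any of these 5 windows, which says only that those letters are not there.

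The plot of deposited values by library shows the order Sall4, Sall1, Sall2, Sall3 from high to low in 8 of the 11 libraries that list all 4, the DKO, the wild-type cells for it and Sall1 het being the others. Sall4 was the highest of the 4 genes in 11 of 12 libraries, and Sall1 was above it only in Sall1 het, at 21.8 against 18.6 FPKM. Sall4 stood at 5 or more in all 12 libraries, Sall1 in 11, Sall2 in 2 and Sall3 in 0. In the gene-level libraries, Sall4 ranked above 71.5% to 98.2% of the genes listed in all of those tables, Sall1 above 28.2% to 89.2%, Sall2 above 15.6% to 47.1% and Sall3 above 0.687% to 38.1%. The lowest rank of Sall1 was in the DKO, and elsewhere it was above at least 66.1%, so that outside the DKO every rank of Sall4 and Sall1 was over those of Sall2 and Sall3.

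**Figure D1:**
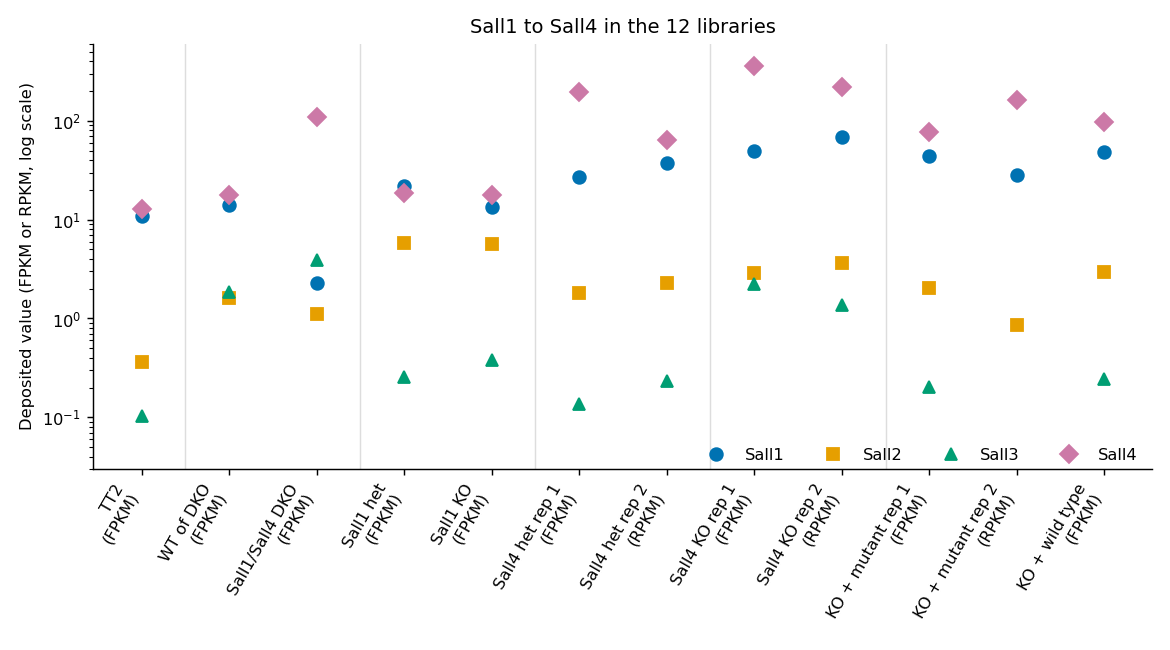
Deposited value of each SALL gene (vertical axis, FPKM or RPKM as marked under each library, log scale) in the 12 libraries (horizontal axis), 1 point per gene and library. Sall4 ran from 12.8 in TT2 to 358 in Sall4 KO replicate 1, Sall1 dropped to 2.27 in the DKO, and Sall3, not listed in KO plus mutant replicate 2, was at 1 or more in 4 libraries.

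Sall4 made up between 40.0% of the summed value of the family, in Sall1 het, and 93.8%, in the DKO. The share of Sall1 was 1.95% in the DKO and 12.02% to 46.9% in the other 11 libraries. In the libraries of DKO wild type and TT2, the 2 genes were close to each other. There, Sall4 was 1.27 and 1.18 times Sall1. The ratio of Sall4 to Sall1 was 7.23 and 1.70 in the Sall4 het libraries and 7.22 and 3.22 in the Sall4 KO libraries. With the mutant SALL4A it was 1.76 and 5.65, and with the wild type 2.00. The replicates of a group therefore differed more in this ratio than the Sall4 het and KO libraries of replicate 1 did, and the groups overlap. Sall2 had its largest shares in the Sall1 pair, with 12.5% in het and 15.4% in KO. Sall3 made up 5.24% in the wild-type cells for the DKO and 3.35% in the DKO.

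**Figure D2:**
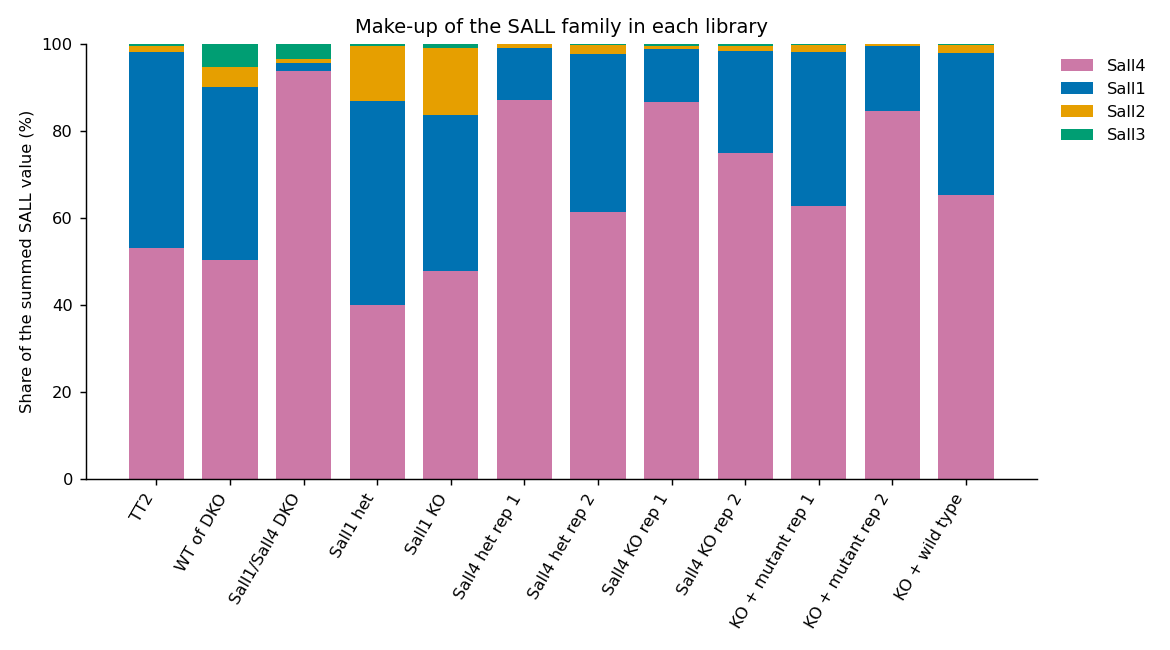
Stacked bars of the share of each gene (%) in the summed value of Sall1 to Sall4, 1 bar per library. Sall4 and Sall1 filled most of every bar. The Sall1 segment was 1.95% in the DKO.

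Sall4 itself was read first, as the gene named in most genotype labels. It was 196 FPKM and 64.2 RPKM in the 2 libraries labelled Sall4 het and 358 FPKM and 218 RPKM in those labelled Sall4 KO. All of the libraries labelled KO stood above all of those labelled het, so the Sall4 value was not lower where the label says KO. The deposited value is for the gene as a whole and the removed exons are not known here, so it checks no label. Every direction here is between libraries as labelled. After scaling each library by the median ratio over genes, adding 1 and taking log2, the limma estimate for KO over het was 1.27 ± 0.67 (SE, 2 libraries per group, 95% interval -0.51 to 3.05), with a Benjamini-Hochberg adjusted p of 0.690 over 15094 genes. Sall4 was higher in KO in both replicates, and the change did not pass the adjusted test. The width of the interval came with the mutant libraries, which share the estimate of the spread. Fitted on the het and KO libraries only, the change was 1.27 ± 0.28 (SE, interval 0.52 to 2.01), with an adjusted p of 0.313 in limma. Gm14261, a predicted gene that overlaps Sall4 in the annotation, was listed at 0.377 and 0.378 in Sall4 het and at 1.29 and 1.396 in Sall4 KO. The sources used here do not say whether the counting used strand, so reads of Sall4 and Gm14261 cannot be told apart.

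Sall1, Sall2 and Sall3 also stood higher in both libraries labelled Sall4 KO than in both labelled Sall4 het. Across all genes of this comparison 16.5% were higher with groups that did not overlap, and 28.6% were higher in both replicates. Sall3 reached the limit for the fit, 1 or more in at least 2 libraries, only through its KO libraries and so had to differ, which leaves Sall1, Sall2 and Sall4 to be read against these shares. None of the 4 passed the adjusted limma test, nor did any of the 15094 genes (0%), of which 581 were higher and 713 lower at an unadjusted p under 0.05.

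Sall3, the lowest of the 4, had the largest ratio. It was 0.135 FPKM and 0.231 RPKM in Sall4 het and 2.25 FPKM and 1.36 RPKM in Sall4 KO. Both KO libraries lay above 1 and both het libraries far below it. The ratio of deposited values was 16.7 in replicate 1 and 5.90 in replicate 2, where the lower value is near the bottom of the table and its counting error is unknown. On the log2 scale with 1 added, which shrinks ratios of low genes, the limma change was 1.17 ± 0.27 (SE, 5 libraries in the fit, since KO plus mutant replicate 2 does not list the gene), and no p is read from that fit because the KO values admitted the gene. Fitted with no filter on low values, over 17775 genes, the change was again 1.17 ± 0.24 (SE, 5 libraries, interval 0.47 to 1.86), with an unadjusted p of 0.0106 and an adjusted p of 0.472 in limma. Of genes at 1 or more in either library, 98.2% had a lower log2 ratio than Sall3 in replicate 1 and 93.6% in replicate 2. Sall3 is among those genes only through its KO values, so its ratio had to be high. Its place among them, and its share past 2-fold, are a description only. On this scale Sall3 was the only SALL gene past 2-fold in replicate 1, as were 4.09% of genes at 1 or more, and Sall4 the only one in replicate 2, as were 5.74% of genes at 5 or more.

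Sall1 was 27.1 FPKM and 37.8 RPKM in Sall4 het and 49.7 FPKM and 67.9 RPKM in Sall4 KO. The ratios were 1.83 and 1.80, so the replicates differed little in this ratio although they differ in strain, unit and annotation. The limma change was 0.80 ± 0.35 (SE, 2 libraries per group, interval -0.13 to 1.73), with an adjusted p of 0.630. Sall2 was 1.83 FPKM and 2.26 RPKM in Sall4 het and 2.90 FPKM and 3.62 RPKM in Sall4 KO, ratios of 1.59 and 1.60. Its limma change was 0.44 ± 0.32 (SE, 2 libraries per group, interval -0.39 to 1.27), with an adjusted p of 0.771. For both genes the interval includes 0 and also a log2 change of 1. Fitted on the het and KO libraries only, the interval was 0.24 to 1.36 for Sall1 and -0.18 to 1.08 for Sall2, with adjusted p of 0.340 and 0.536 in limma.

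**Figure D3:**
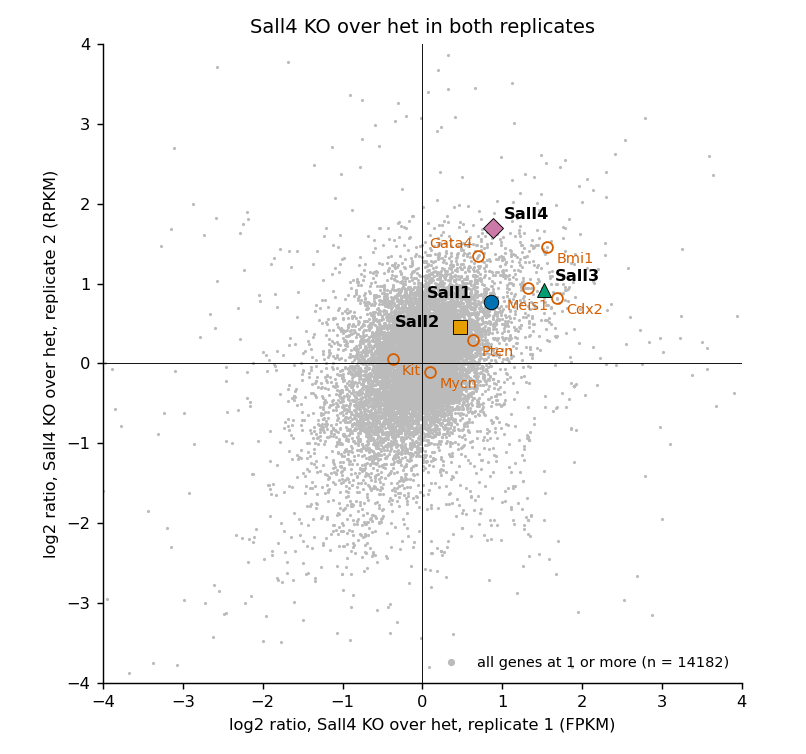
The log2 ratio of (scaled value + 1) between Sall4 KO and het in replicate 1 (horizontal axis) and replicate 2 (vertical axis), for 14182 genes at 1 or more in both pairs (grey), the SALL genes (filled symbols) and the 7 tested genes of a list of reported SALL4 targets (open circles). All 4 SALL genes lie above 0 on both axes, and 122 genes lie outside the axes. Sall3 is at 1 or more only through its KO libraries, so its place was fixed by that limit.

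Markers of other cell types were read beside these changes. Of 10 ES cell markers, 9 or 10 were at 5 or more in each gene-level library. The scaled sum of 7 trophoblast markers was 30.2 and 21.8 in Sall4 het and 38.4 and 35.3 in Sall4 KO, so it was higher in both KO libraries. Most of it was from Tfap2c, with deposited values of 27.5 and 16.7 in het and 22.4 and 31.3 in KO. That gene was thus lower in KO in replicate 1 and higher in replicate 2. That of 10 fibroblast markers was 95.1 and 50.6 in het and 137 and 83.1 in KO, with most of it from Fn1, and Dcn was at 0 in het replicate 1, Lum in het replicate 2 and Postn in KO replicate 1. That of 10 primitive endoderm markers was 215 and 104 in het and 173 and 85.6 in KO, mostly from Sparc. Not every table lists all of these markers. Their part in the SALL values was not tested. In bulk RNA, more cells with a transcript and more RNA per cell cannot be told apart.

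In the library labelled DKO and the wild-type cells for it, the family members stood in different directions. Sall1 stood at 2.27 FPKM in the DKO against 13.9 in the wild-type cells. The log2 ratio was -2.17, and only 0.68% of genes had a lower one. Sall4 was 109 against 17.6 FPKM, a log2 ratio of 2.59, above that of 99.45% of genes. The library labelled as lacking both genes was thus low in the RNA of 1 of them and high in the RNA of the other. Sall3 was 3.90 against 1.84 FPKM, a log2 ratio of 0.81, above that of 92.9% of genes. Its ratio of deposited values was 2.13, and it fell short of 2-fold once 1 was added. Sall2 was 1.10 against 1.60 FPKM, a log2 ratio of -0.29, above that of 23.5% of genes. With 1 added, Sall4 was 2-fold higher, as were 4.83% of genes at 5 or more, and Sall1 was 2-fold lower, as were 3.67%. With 1 library per group there is no replicate check of these differences. The fibroblast marker sum was high in both libraries, at 436 in the DKO and 404 in its control, and the primitive endoderm sum was 234 and 349.

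In the Sall1 pair, Sall1 stood at 13.3 FPKM in the KO library against 21.8 in the het library, and the log2 ratio was -0.67. Only 0.895% of genes had a lower ratio, and ratios over all genes spread least in this pair of the 7 compared. No other SALL gene stood apart: Sall2 was 5.71 against 5.78, Sall3 was 0.382 against 0.258 and Sall4 was 17.8 against 18.6 FPKM. Their log2 ratios were -0.018, 0.13 and -0.065, and 44.3%, 84.3% and 30.4% of genes had lower ones. None of the 4 genes was 2-fold changed, against a background of 0.624% higher and 0.722% lower. As log2 ratios with 1 added, none of these reached those of the paralogs between Sall4 KO and het. The smallest of those was 0.46, for Sall2 in replicate 2. For Sall3, below 1 in both libraries of the Sall1 pair, the ratio of deposited values was 1.48. With 1 library each the error of these ratios is unknown, and the Sall1 value in Sall1 KO was itself 0.611 of that in het.

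Libraries of Sall4 KO cells given SALL4A were set against Sall4 KO, and they share those KO libraries with the comparison above, so the values are given side by side and no agreement between the comparisons is read. Reads from the transgene and from the endogenous locus cannot be told apart in the Sall4 value. In replicate 1 the add-back libraries list 23234 entries, with a Sall4 span of 18870 bases, against 37883 and 19777 for Sall4 KO. In replicate 2 the mutant library lists 20223 entries and the KO library 19049. Add-back and annotation therefore cannot be told apart in these comparisons. The Sall4 value was 77.4 FPKM and 161 RPKM with the mutant and 97.4 FPKM with the wild type, each below the KO library of its replicate. For KO plus mutant over KO the limma change was -1.01 ± 0.67 (SE, 2 libraries per group), with an adjusted p of 0.547 over 15077 genes. It rested on replicate 1, with log2 ratios of -1.92 and -0.15. When mutant replicate 2 was left out the change was -2.10 and passed the test with an adjusted p of 0.0248 (0.0248 to 0.9996 over the settings tried), and with mutant replicate 1 left out it was 0.022. None of the 15077 genes passed the adjusted test (0%). At an unadjusted p under 0.05 limma had 1755 higher and 545 lower, and with values as deposited 1234 higher and 1609 lower, so which side had more genes depends on the scaling. That count of 0 rests on both mutant libraries together, since leaving out mutant replicate 1 gave 282 called genes and leaving out replicate 2 gave 764.

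Sall3 was 0.203 FPKM with the mutant in replicate 1 and 0.244 with the wild type, against 2.25 in Sall4 KO replicate 1 and 0.135 in Sall4 het replicate 1. Of these 4 libraries, labelled with 1 strain, the KO library alone was above 1. The het and KO libraries share an annotation that the add-back libraries do not. The log2 ratios to KO were -1.31 with the mutant and -1.28 with the wild type, and the limma change for the mutant was -1.20 ± 0.36 (SE, KO plus mutant with 1 library), again with the gene admitted by its KO values. With no filter it was -1.20 ± 0.32 (SE), with an adjusted p of 0.248 in limma. A 2-fold lower value was seen for 13.3% of genes at 5 or more in the mutant pair of replicate 1 and for 14.1% in the wild-type pair. Among genes at 1 or more, which Sall3 joins only through its KO value, the shares were 11% and 12.1%. The Sall4 ratios, 2-fold lower in both pairs, thus sat in the lower tail of pairs in which many genes were lower. Sall3 was 2-fold lower in both as well, but given how it joins these genes it had to be lower. Its ratios are therefore not read against these shares. The scaled trophoblast marker sum was 39.2 and 26.1 with the mutant and 34.8 with the wild type, and the fibroblast sum was 101, 70.2 and 99.7.

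Sall1 and Sall2 moved little in the FPKM add-back libraries and were lower in the RPKM one. Sall1 was 43.9 FPKM and 28.5 RPKM with the mutant, log2 ratios to KO of 0.10 and -0.94, and 48.8 FPKM with the wild type, a log2 ratio of 0.21. The replicates went in opposite directions, and the limma change was -0.39 ± 0.35 (SE, 2 libraries per group), with an adjusted p of 0.650. Sall2 was 2.01 FPKM and 0.866 RPKM with the mutant, log2 ratios of -0.17 and -1.13, and 2.97 FPKM with the wild type, a log2 ratio of 0.20. Its limma change was -0.64 ± 0.31 (SE, 2 libraries per group), with an adjusted p of 0.437. Sall2 and Sall4 were lower in the mutant group with no overlap, as were 21.7% of genes. In replicate 2 Sall2 was also 2-fold lower, against 2.06% of genes at 5 or more and 1.95% at 1 or more. As deposited, without scaling, the median log2 ratio of all genes was -0.25 and -0.24 in the mutant pairs and -0.22 in the wild-type pair, and the Sall1 value of both FPKM add-back libraries was then below that of KO, at 0.884 and 0.982 of it, so the sign of these small ratios depends on the scaling.

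**Figure D4:**
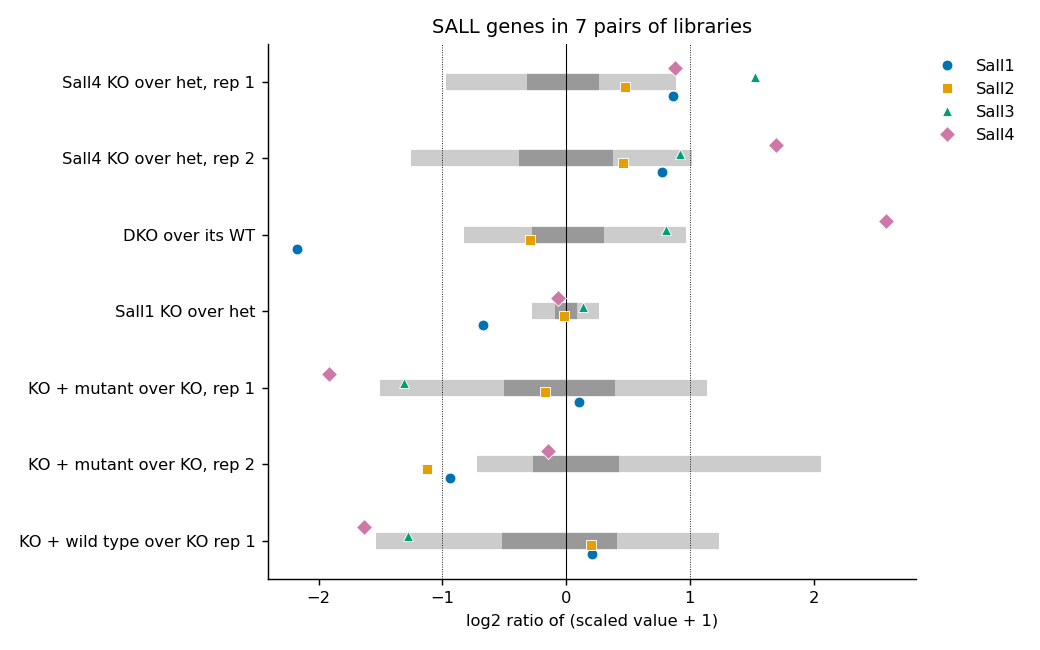
The log2 ratio of (scaled value + 1) for each SALL gene (symbols) in 7 pairs of libraries. Dark grey bars span the middle 50% and light grey bars the middle 90% of genes at 1 or more in either library, and dotted lines mark 2-fold. The 4 genes lie to the right of 0 in both Sall4 KO over het pairs, and Sall1 lies left of the light bar in the DKO and Sall1 KO pairs. In pairs with Sall4 KO, Sall3 is at 1 or more only through the KO library.

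Set directly against Sall4 het, KO plus mutant had no SALL gene past the test, with estimates whose intervals were wide. As against Sall4 KO, add-back and annotation cannot be told apart here. The limma estimates were 0.41 ± 0.35 for Sall1, -0.19 ± 0.31 for Sall2, -0.030 ± 0.36 for Sall3 and 0.26 ± 0.67 for Sall4 (SE, 2 libraries per group, for Sall3 1 mutant library), with adjusted p from 0.613 to 0.976. None of the 15077 genes passed (0%), and at an unadjusted p under 0.05 limma had 1639 higher and 655 lower, and with values as deposited 1133 higher and 1609 lower. Leaving out mutant replicate 1 gave 203 called genes, and leaving out replicate 2 gave 655. Sall1, Sall2 and Sall4, which both mutant tables list, moved in opposite directions in the 2 replicates, while 26.5% of genes were higher and 27.1% lower in both. The signs of these estimates turned when 1 library was left out, to -0.20 for Sall1 without mutant replicate 1, to 0.28 for Sall2 and -0.84 for Sall4 without mutant replicate 2, and to 0.066 for Sall2 and -0.57 for Sall4 without het replicate 2.

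Across the groups, each gene had its own order of levels, given as means of log2(scaled value + 1) and read against the pooled SD within groups of 2 libraries. Each group of 2 averages 1 FPKM and 1 RPKM library, while the single libraries hold FPKM. Annotations differ between libraries as well. A step between groups may therefore hold differences of unit and annotation, which was not tested. For Sall4, the wild-type cells for the DKO, Sall1 KO and Sall1 het stood between 4.26 and 4.33 and did not differ beyond the SD of 0.82. The step to Sall4 het, at 6.70, was 2.37, and KO plus wild type, the DKO and KO plus mutant followed up to 6.98 within the SD. Sall4 KO was highest at 7.97. For Sall1, the DKO was lowest at 1.77, Sall1 KO and the wild-type cells for the DKO were next at 3.88 and 3.94 and did not differ beyond the SD of 0.36, Sall1 het followed at 4.55, a step of 0.61, then Sall4 het and KO plus mutant at 4.92 and 5.34 in steps barely over the SD, and Sall4 KO and KO plus wild type were highest at 5.72 and 5.75. Sall2 ran from 1.11 in the DKO to 1.52 in Sall4 het in steps within its SD of 0.32 and was highest in Sall1 KO and het, at 2.78 and 2.79, a step of 0.70 over KO plus wild type. For Sall3, 5 groups from Sall4 het at 0.22 to Sall1 KO at 0.48 lay within the SD of 0.26 of their neighbours. Sall4 KO was at 1.37, the wild-type cells for the DKO at 1.53 and the DKO at 2.36. The 3 groups highest in Sall3 thus include a wild-type line. The single libraries of this ordering share a strain label but have no replicate, and the labels do not say whether they share a parent line.

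The partners of the SALL proteins were read from lists, each described by its counts in limma for Sall4 KO over het, where the median of all genes was -0.015 and no listed gene passed the adjusted test. Of 14 NuRD subunits 11 were higher and 3 lower, with a median of 0.23. Chd3, a remodeller subunit, was 6.46 and 3.84 in het and 16.2 and 10.8 in KO, a log2 change of 1.20 with an adjusted p of 0.563. Mbd2, which binds methylated CpG, had 0.74 and Hdac1, a deacetylase, -0.37. Of 4 genes of cytosine oxidation 2 were higher and 2 lower, with a median of 0.017. Of these, Tet3, a dioxygenase, had the largest estimate, 0.62.

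Of 13 tested genes of the pluripotency network 9 were higher and 4 lower, with a median of 0.077. Tfcp2l1, a naive pluripotency factor, was 7.09 and 4.55 in het and 21.6 and 10.1 in KO, a log2 change of 1.20 with an adjusted p of 0.484. Nanog, a homeobox factor of naive cells, had -0.82 and Nr0b1, an orphan nuclear receptor, 0.34. Of 5 genes of the CRBN ubiquitin ligase, which degrades SALL4 in human cells exposed to thalidomide, 5 were higher, with a median of 0.18 and a smallest adjusted p of 0.873. Ddb1, its adaptor, had 0.23.

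Of 10 lineage genes reported elsewhere as SALL4 targets, 7 entered the fit, 5 higher and 2 lower. Cdx2, Meis1 and Gata4 would not have reached the limit of 1 in 2 libraries without Sall4 KO, so the list's count and median (0.98) are no support for a direction, and the values are given as a description. Bmi1, a Polycomb subunit, was 0.810 and 2.11 in het and 4.31 and 7.79 in KO, a log2 change of 1.46 ± 0.21 (SE, 2 libraries per group) with an adjusted p of 0.353. Cdx2, the trophectoderm homeobox factor, was 0.116 and 0.167 in het and 2.58 and 1.09 in KO, and 0.175 in KO plus mutant replicate 1, with KO plus mutant replicate 2 not listing it. Sall3 was low in the same het and mutant libraries. Both genes reached the limit only through Sall4 KO, so no likeness between them is read from this. Meis1, a homeobox cofactor, was 0.704 and 1.07 in het and 3.25 and 3.10 in KO, a log2 change of 1.09. Gata4, named after its value was seen, was at 0.824 and 0.200 in het and 1.95 and 2.11 in KO.

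Genes with a profile like that of each member were named by Pearson's r of log2(scaled value + 1) over the 8 gene-level FPKM libraries, among 2581 genes that varied. Sall4 het and KO replicate 1 list 37883 entries and the other libraries 23234 or 23235, so they do not share 1 annotation. Here r is a description, and the genes were picked for it. For Sall1, the highest were Akap11 (0.94), Spcs3 (0.92), Kbtbd8 (0.91), Otud4 (0.91) and Alg11 (0.90), and the lowest were Bcat2 (-0.96), Ube1y1 (-0.95) and Cxcr7 (-0.93). Akap11 was lowest in the DKO, at 2.01 FPKM, as Sall1 was. For Sall2, the highest were Bend3 (0.98), Adk (0.94), Syt11, Qser1 and Camkv, and the lowest were Atp9a (-0.94), Cyp4f13 and Adc. Bend3 was 12.1 and 11.6 FPKM in Sall1 het and KO, where Sall2 was highest, and 3.85 in the DKO.

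For Sall3, the highest were Cmtm3, Anxa5, Lhfp, Fstl1 (0.97 each) and Krt7 (0.96), and the lowest were Cpsf4l (-0.98), Liph (-0.97) and N4bp3 (-0.96). Fstl1, a secreted matrix-associated protein, was 129 FPKM in the DKO, 66.3 in Sall4 KO replicate 1 and 36.4 in the wild-type cells for the DKO, and 15.3 to 21.1 in the other 5 libraries. Krt7, a simple-epithelium keratin and 1 of the trophoblast markers above, was 7.39, 7.12 and 5.31 in the same 3 libraries and 1.20 to 2.57 in the others. Sall3 itself was 3.90, 2.25 and 1.84 FPKM in these 3 libraries and 0.135 to 0.382 in the other 5. Both genes were picked for following it, so their values add no support. For Sall4, the highest were Vps37a (0.96), Spna2 (0.94), Efcab4a (0.93), Syne2 (0.92) and Ddc (0.92), and the lowest were Uchl3, Serpinb6a and Lipt2 (-0.97 each). Vps37a was 12.7 and 14.1 FPKM in Sall4 het and KO replicate 1, which share an annotation, and 3.65 to 6.86 in the other libraries. Syne2 was 12.6 and 14.3 against 0.547 to 3.03. Ddc stood less apart, at 23.1 and 45.6 against 5.34 to 22.5. Whether these profiles follow the annotation was not tested. Between the members themselves r over these 8 libraries was 0.32 for Sall1 and Sall2, -0.64 for Sall1 and Sall3, 0.27 for Sall1 and Sall4, -0.55 for Sall2 and Sall3, -0.50 for Sall2 and Sall4 and 0.19 for Sall3 and Sall4. These r are not set against those of the named genes, which were picked as the highest among 2581 genes.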

How the data were processed

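RNA was read from 12 expression tables. Per the submitters' processing notes, TopHat, Bowtie 0.12.7, SAMtools and MACS 1.4.2 were used over the series with build mm9, and the sources used here do not give which of them made each table. The deposited FPKM values cover 9 libraries and the deposited RPKM values 3, per the file headers. The values do not resolve into whole reads, and the depth is unknown. Sums of values ran from 835259 to 7007612, and the 10 highest entries held 10.2% to 82.7%. TT2, a transcript table, entered no ratio or fit, and 99.3% of its identifiers were named through a RefSeq table of GRCm38.p6. For KO plus mutant, second library, 19 shifted symbols were corrected through their identifiers.

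Values were scaled by median ratio and put on a log2 scale after adding 1. The fit in limma 3.58.1 under R 4.3.3 (lmFit, then eBayes with its trend option) used group and replicate number as terms, for genes reaching 1 in 2 or more of the 6 libraries. Its two-sided p-values had the Benjamini-Hochberg adjustment within each of 3 comparisons. Replicate numbers pair the samples through the shared strain and line label. Deviations of same-numbered libraries had r of 0.58 for het and KO, 0.11 for het and mutant and 0.065 for KO and mutant over 11636 genes. Pairs of single libraries got ratios without a test, with 2-fold as the limit. The fit was tested on simulated data. Other steps ran in Python 3.11.15 with numpy 2.4.6, pandas 2.3.3 and, for plots, matplotlib 3.10.9.

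The members and lists were chosen with earlier results of these data known. Genes named were the 4 members, up to 3 genes per list with the largest change in limma, and for each member the 5 highest and 3 lowest r. Alternatives were a pseudocount of 0.1, values as deposited, other filters, the highest entry of a symbol, no replicate term and leaving out libraries.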

Additional observations from a re-analysis of the deposited data

Results flagged for a closer look

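In 4 results the replicates, which also differ in strain label and unit, moved in opposite directions, each with 1 library per group and strain, so the differences were not tested. Sall1 between KO plus mutant and Sall4 KO had a log2 ratio of 0.10 in replicate 1 (C57BL/6J, FPKM) and -0.94 in replicate 2 (129P2/OlaHsd, E14.1, RPKM), a difference of -1.04 for replicate 2 minus replicate 1. Between KO plus mutant and Sall4 het, Sall1 had 0.96 and -0.15, a difference of -1.10, and Sall2 had 0.28 and -0.67, a difference of -0.95. In the same comparison Sall4 went the other way, with -1.04 and 1.57, a difference of 2.61.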

How the results depend on the processing

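Pairing by replicate number was part of the fit. Without the replicate block the limma changes for Sall4 KO over het were 0.80, 0.44, 1.17 and 1.27 for Sall1 to Sall4, with adjusted p of 0.881, 1.0, 0.693 and 0.988, and no call changed. Only Sall3 for KO plus mutant over het turned its sign, to 0.069. For Sall4 KO over het, the 4 changes kept their sign and stayed short of the threshold under every setting that gave an estimate, with 0 genes called. Leaving out each replicate in turn gave 0.48 to 1.12 for Sall1, 0.18 to 0.70 for Sall2 and 0.43 to 2.10 for Sall4. Sall3 had an estimate in only 2 of these fits, 1.18 and 1.19, both without a mutant library. Those fits kept every het and KO value, so this narrow range does not test its change. Where 1 library was left in a group, it was assumed to vary like the others.

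For KO plus mutant over KO, leaving out replicates gave -0.996 to 0.14 for Sall1, -1.16 to -0.16 for Sall2 and -2.10 to 0.022 for Sall4, with 0 to 764 genes called. For KO plus mutant over het they gave -0.20 to 0.94 for Sall1, -0.71 to 0.28 for Sall2 and -0.84 to 1.29 for Sall4, with 0 to 655 genes called. The turned signs were -0.20 for Sall1 (without mutant replicate 1), 0.066 and 0.28 for Sall2 and -0.57 and -0.84 for Sall4 (without het replicate 2 and without mutant replicate 2) against het, and 0.14 for Sall1 (without mutant replicate 2) and 0.022 for Sall4 (without mutant replicate 1) against KO. The Sall4 change against KO of -2.10 (without mutant replicate 2) was the 1 that passed the threshold. As deposited, Sall4 for KO plus mutant over het was -0.0076, and with a pseudocount of 0.1 Sall3 was 0.23.

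With a pseudocount of 0.1 in place of 1, the log2 ratios of Sall3 were 3.33 and 2.10 for Sall4 KO over het, -2.72 for KO plus mutant over KO in replicate 1 and -2.57 for KO plus wild type over KO, and that of Sall2 for KO plus mutant over KO in replicate 2 was -1.67. The lower pseudocount shrinks low values less. By Spearman's rho, 0, 1, 1 and 0 of the 5 most alike genes were kept for Sall1 to Sall4, and over all 11 gene-level libraries 2 were kept for Sall1. Depth is unknown, so the counting error of Sall2 and Sall3 cannot be given.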
